A study of Populus tremula x Populus alba with 2 samples.

Results

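Transcripts of 4 poplar genes that mark the dying cells of maturing xylem were examined: XCP1 (Potri.004G207600), the XCP2 pair (Potri.005G256000 on chromosome 5 and Potri.002G005700 on chromosome 2) and a homologue of the nuclease BFN1 (Potri.011G044500). They were taken by identifier from the 41335 poplar genes of the deposited table, and all 4 were found. RNA came from hybrid aspen (Populus tremula x Populus alba), which had been coppiced and was harvested after some 2 months in a greenhouse. The MOMT4 library was made from the transgenic line MOMT4-0, which carries an engineered monolignol 4-O-methyltransferase under the bean PAL2 promoter, a promoter known for activity early in xylem differentiation. The WT library was made from the control line without the transgene. In both, internodes 1 to 15 from the top were taken, the bark was removed, and about 100 mg of stem from 2 to 3 plants was pooled into 1 library, so that 1 transgenic line was set against 1 control with no replicates.

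A tracheary element, the water-conducting cell of wood, becomes functional only after it dies. Once its secondary wall has been laid down, its large vacuole breaks and releases enzymes that clear away the cell contents, so that only the lignified wall remains around an empty lumen. In Arabidopsis the papain-like cysteine proteases XCP1 and XCP2 are stored in the vacuole and digest proteins when it collapses, and BFN1 is a bifunctional nuclease that degrades RNA and single-stranded DNA in cells undergoing developmental death, in xylem as well as in senescing leaves and abscission zones. In poplar wood, transcripts of these genes are used as a gauge of how much maturing xylem a sample holds.

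The libraries were close in scale. The deposited values are read counts scaled for exon length and for the mapped reads of the library (RPKM), and they summed to 661765 in MOMT4 and 669547 in WT. From the spacing of low values, they had been scaled to about 9460000 reads in MOMT4 and 8750000 reads in WT, so that a read added 1.081 times more RPKM in WT than in MOMT4. The row taken as the transgene had 1221.8 RPKM under the heading MOMT4 and 4.79 RPKM under WT. The sample descriptions give the short codes of the libraries the other way round from the table, and the headings were followed. With 1 library per line no test of the difference was possible, the spread between plants is unknown, and an effect of MOMT4 cannot be told apart from a difference between the pools. In debarked stem, which holds many cell types, fewer dying cells and less RNA per cell cannot be told apart either.

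The XCP2 pair and BFN1 were all lower in MOMT4 than in WT, by 12.5% to 22.2%, whereas XCP1, the scarcest of the 4, was 2.43-fold higher in MOMT4. None of the 4 lay 2-fold apart on the scale used for all genes, log2 of MOMT4 over WT after adding a pseudocount of 1 RPKM to each value, which understates the difference of genes at low levels. Among the 22944 poplar genes that averaged at least 1 RPKM over both libraries, a filter that all 4 genes passed, 1.77% were at least 2-fold apart in either direction. XCP1, at a log2 ratio of 0.99, stood just inside that limit.

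**Figure D1:**
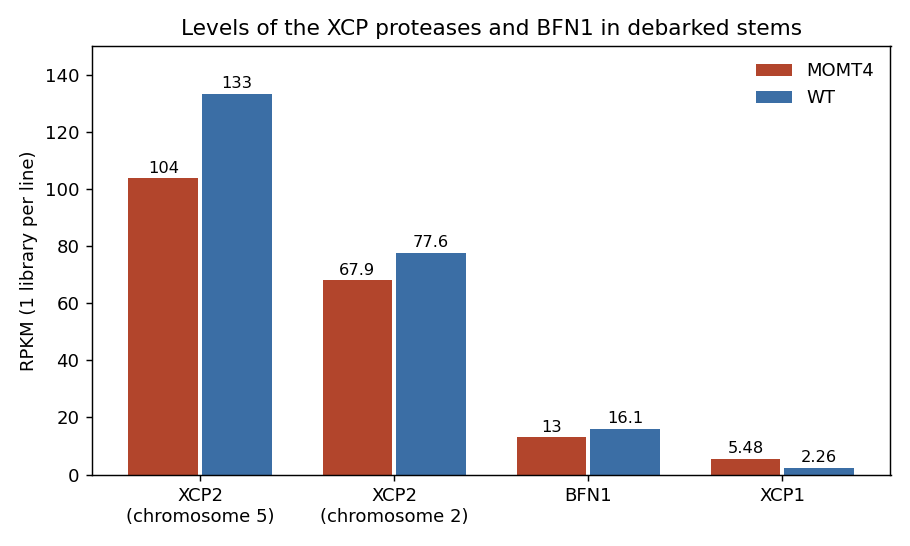
RPKM of each gene (vertical axis, from 0) in the MOMT4 library (red bars, left of each pair) and in the WT library (blue bars, right), with 1 library per line and hence no error bars. The chromosome 5 copy of XCP2 was the most abundant in both libraries, at 104 RPKM in MOMT4 and 133 RPKM in WT, and XCP1 is the only gene whose MOMT4 bar is the taller.

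The chromosome 5 copy of XCP2, Potri.005G256000, carried most of the XCP transcript. It had 103.7 RPKM in MOMT4 and 133.2 RPKM in WT, and ranked 1134 among the poplar genes in MOMT4 and 810 in WT. MOMT4 was therefore the lower library for this gene, by 22.2%, with a log2 ratio of -0.36. Of the 1000 genes nearest to it in mean RPKM, 4.3% had a ratio as low or lower, and the central 95% of them lay between -0.44 and 0.45, so that it stood near the lower edge of genes of its level. The deposited table places it at 25611140 to 25613294 on chromosome 5, a span of 2155 bases.

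The chromosome 2 copy, Potri.002G005700, differed less. Its level was 67.9 RPKM in MOMT4 and 77.6 RPKM in WT, a difference of -12.5% and a log2 ratio of -0.19. MOMT4 was again the lower library, but 14.7% of the 1000 genes of like level had a ratio as low or lower, well inside their central 95% of -0.42 to 0.40. This copy spans 2020 bases at 311075 to 313094 on chromosome 2.

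BFN1, the nuclease of the group, was present at a moderate level. Potri.011G044500 had 13.0 RPKM in MOMT4 and 16.1 RPKM in WT, and MOMT4 was lower by 19.3%, with a log2 ratio of -0.29. Genes of its level spread more widely, with a central 95% from -0.52 to 0.51, and 11.4% of the nearest 1000 had a ratio as low or lower. It lies at 3773111 to 3775477 on chromosome 11, a span of 2367 bases.

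XCP1 went the other way. Potri.004G207600 had 5.48 RPKM in MOMT4 and 2.26 RPKM in WT, the lowest level of the 4 genes in both libraries, and MOMT4 was the higher library. The log2 ratio was 0.99 with the pseudocount and 1.28 without it. Only 2.3% of the 1000 genes nearest in mean RPKM had a higher ratio, and it lay above their central 95%, which ran from -0.69 to 0.93. With a limit of 1.5-fold, XCP1 was the 1 gene of the 4 past it, against 7.07% of all genes past the filter. With a pseudocount of 0.1 RPKM it was also past 2-fold, as were 2.2% of all genes in the same direction.

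The row of XCP1 shares its position with another gene. The table gives 21630950 to 21636792 on chromosome 4, a span of 5843 bases, both for XCP1 and for Potri.004G207700, so the span is that of the locus and not of XCP1 alone. Reads in a stretch that both models cover could have been assigned to either. The libraries were built to keep strand, but whether strand was used in counting is not given in the sources used here. Potri.004G207700 had 26.6 RPKM in MOMT4 and 25.1 RPKM in WT, a log2 ratio of 0.08. The RPKM of both rows summed to 32.1 in MOMT4 and 27.3 in WT, and the log2 ratio of the sums was 0.22, against 0.99 for XCP1 alone. XCP1 held 17.1% of that sum in MOMT4 and 8.25% in WT, so the ratio of the sums mostly follows Potri.004G207700. It cannot show whether reads were assigned to the wrong row. Because shared reads could have gone to either row, the value of XCP1 is uncertain. In all, 3087 rows of the table share a position with another row, and 2.64% of those past the expression filter were at least 2-fold apart.

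**Figure D2:**
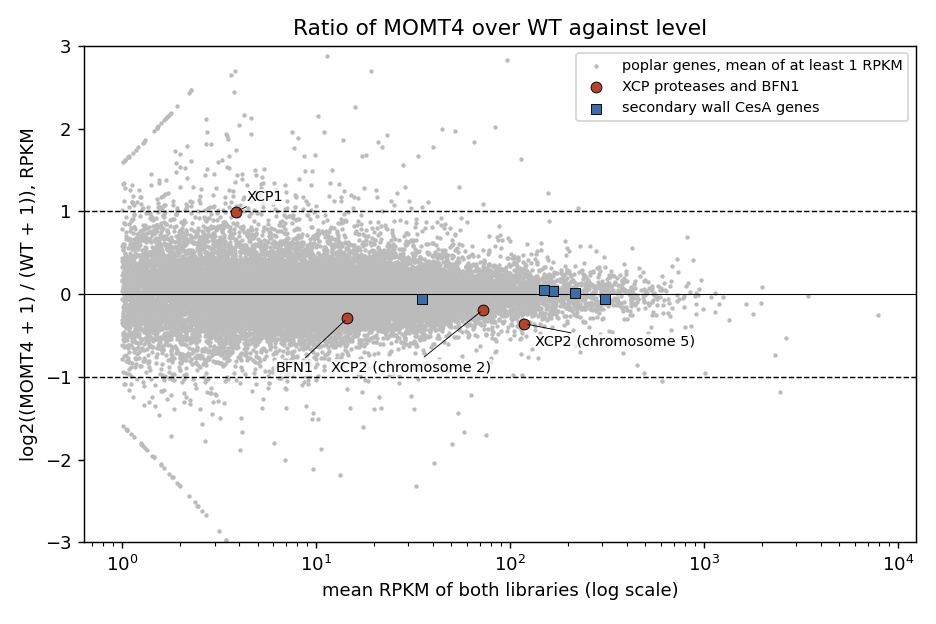
Log2 ratio of MOMT4 over WT with a pseudocount of 1 RPKM (vertical axis) against the mean RPKM of both libraries (horizontal axis, log scale) for poplar genes that averaged at least 1 RPKM (grey; 18 genes beyond 3 on the log2 scale are not shown), with the 4 xylem cell death genes as red circles, the secondary wall CesA genes as blue squares and dashed lines at 2-fold. XCP1 sits at 0.99, just under the upper dashed line, while both XCP2 copies and BFN1 sit below 0, between -0.36 and -0.19.

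The counting error behind these ratios was bounded by asking which whole numbers of reads give the RPKM values of a gene in both libraries to the digits deposited. For XCP1 the reads stood as 21 in MOMT4 to 8 in WT or a multiple of these, up to 273 and 104 if the whole span were counted. That span is the one shared with Potri.004G207700 and not of XCP1 alone, so 273 and 104 are an outer bound. The ratio of 2.43 then had a 95% interval of 1.03 to 6.34 at the fewest reads and of 1.93 to 3.07 at the most (exact Clopper-Pearson on the share of the reads that fell in MOMT4). MOMT4 was higher over the whole of both intervals. These intervals hold only if reads were counted whole and came from XCP1 rather than Potri.004G207700, and they cover counting error alone.

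For BFN1 the matching numbers of reads were 75 in MOMT4 and 86 in WT, 150 and 172, or 225 and 258. The ratio of 0.81 had an interval of 0.58 to 1.11 with the first of these, 0.64 to 1.01 with the next and 0.67 to 0.97 with the largest. The interval held a ratio of 1 except at the largest number of reads, so a difference in BFN1 beyond counting error depends on how many reads lay behind it.

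The XCP2 copies have more reads, but their numbers were not settled, since 41 pairs of whole numbers matched the values of the chromosome 5 copy and 4 those of the chromosome 2 copy. At the fewest reads, 191 in MOMT4 and 227 in WT, the ratio of 0.78 of the chromosome 5 copy had an interval of 0.64 to 0.95. At the most, 1894 and 2251, it was 0.73 to 0.83. If reads were counted whole, the chromosome 5 copy was therefore lower in MOMT4 beyond counting error at either number. The fewest pair could itself be a match by chance. Up to it, 0.417 matches were foreseen for the chromosome 5 copy and 0.154 for the chromosome 2 copy, against 0.000727 for XCP1. The ratio of 0.88 of the chromosome 2 copy had an interval of 0.73 to 1.05 at 247 reads in MOMT4 and 261 in WT, and of 0.80 to 0.96 at 988 and 1044, so that the call for this copy depends on the number of reads. Gene copies can also share reads that map to both, which was not examined here because their sequences were not used.

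**Figure D3:**
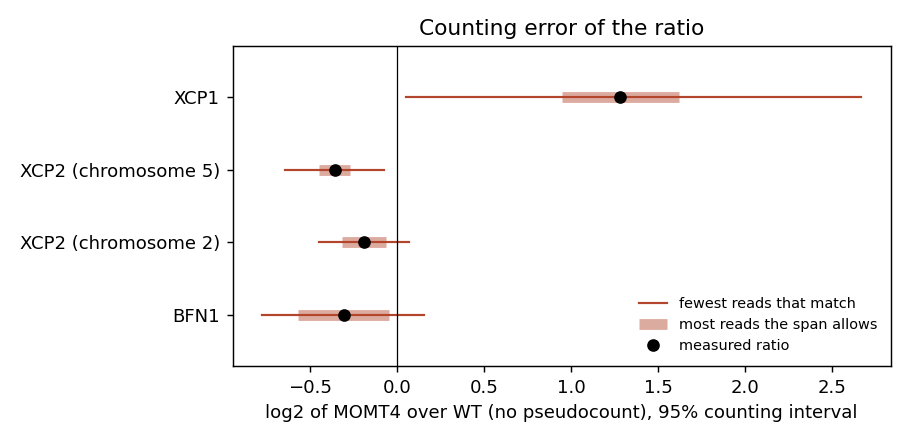
Log2 ratio of MOMT4 over WT without a pseudocount (horizontal axis) for each gene, with its 95% counting interval at the fewest whole reads that match the values (thin line) and at the most that the span allows (thick band). Both intervals of XCP1 lie above 0 and both of the chromosome 5 copy of XCP2 lie below it, whereas the thin lines of the chromosome 2 copy and of BFN1 cross 0. The span behind the thick band of XCP1 is that of a locus shared with another gene.

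Set against each other, 6 pairs of these genes were compared by the ratio of their ratios, MOMT4 over WT. If the reads counted in its row were its own, XCP1 differed from each of the other 3 beyond counting error. Its ratio was 3.12 times that of the chromosome 5 copy of XCP2 (exact conditional 95% interval on the fewest reads 1.29 to 8.32, and on the most 2.46 to 3.98). Beside the chromosome 2 copy it was 2.77 times as large (1.15 to 7.37 on the fewest reads) and beside BFN1 3.01 times (1.19 to 8.29 on the fewest). Among the XCP2 copies and BFN1 no such separation was seen on the fewest reads. The ratio of BFN1 was 1.04 times that of the chromosome 5 copy (0.71 to 1.52) and 0.92 times that of the chromosome 2 copy (0.64 to 1.34). These intervals are unadjusted for the 6 comparisons and hold counting error only. For XCP1 the most reads are an outer bound, set by the span of the shared locus.

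Both XCP2 copies were expressed in both libraries, and the balance between them moved little. The chromosome 5 copy held 60.4% of the pair's RPKM in MOMT4 and 63.2% in WT, or 1.53 times the level of the chromosome 2 copy in MOMT4 and 1.72 times in WT. The ratio of the chromosome 5 copy was 0.89 times that of the chromosome 2 copy, with an interval of 0.68 to 1.16 on the fewest reads and 0.80 to 0.99 on the most. A shift of the balance was thus outside counting error at the most reads and within it at the fewest. Together the pair had 171.6 RPKM in MOMT4 and 210.8 RPKM in WT, and it stood at almost the same multiple of BFN1 in both libraries, 13.2 in MOMT4 and 13.1 in WT.

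XCP1 was a small part of the XCP transcript in either line. It made up 3.09% of the RPKM of the 3 XCP genes in MOMT4 and 1.06% in WT, and the XCP2 pair was 31.3 times as abundant as XCP1 in MOMT4 and 93.5 times in WT. XCP1 was higher by 3.22 RPKM in MOMT4, and the XCP2 pair was lower by 39.2 RPKM. The 3 XCP genes summed to 177.1 RPKM in MOMT4 and 213.1 RPKM in WT, a difference of -16.9%.

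**Figure D4:**
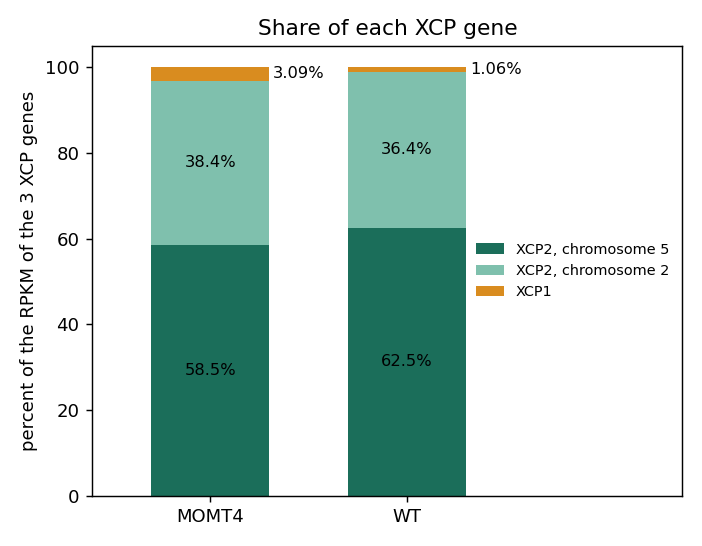
Share of each XCP gene in the summed RPKM of the 3 XCP genes (vertical axis, percent) in the MOMT4 library (left bar) and the WT library (right bar). The chromosome 5 copy of XCP2 fills the largest part of both bars, 58.5% in MOMT4 and 62.5% in WT, and XCP1 the thin top, 3.09% in MOMT4 and 1.06% in WT.

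Genes of the step before cell death were nearly level. Secondary walls are built by the cellulose synthases CesA4, CesA7 and CesA8, which work in cells that have not yet died. The table names no genes, so these 5 genes and the other markers below were taken by identifiers known from work on poplar wood, and the names were not checked against an annotation. The 5 CesA genes summed to 879.0 RPKM in MOMT4 and 881.6 RPKM in WT. Their log2 ratios lay between -0.06 and 0.05, with a median of 0.01, beside a median of -0.01 over all 22944 genes past the filter, and 0 of the 5 were 2-fold apart. The 4 xylem cell death genes had a median of -0.24 and ran from -0.36 to 0.99, so that 3 lay below and 1 above the range of the CesA genes. That range is narrow, so lying outside it does not set a gene apart. Of the genes nearest in mean RPKM to each CesA gene, 71.1% to 94.4% had a ratio at least as far from 0. The same share was 3.1% for XCP1, 8.9% for the chromosome 5 copy of XCP2, 29.1% for the chromosome 2 copy and 21.5% for BFN1. Among all 22944 genes, 50.9% lay below 0.

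Relative to the CesA genes, which frees the comparison from the scaling of the libraries, the XCP2 pair was lower in MOMT4. Its summed RPKM was 1.01 times the median CesA gene in MOMT4 and 1.27 times in WT. BFN1 stood at 7.64% of the median CesA gene in MOMT4 and 9.73% in WT, while XCP1 stood at 3.22% in MOMT4 and 1.36% in WT. The order of the 4 genes by level, both XCP2 copies above BFN1 and BFN1 above XCP1, was the same in both libraries.

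Markers of other cells of the stem ranged from a log2 ratio of -0.29 to one of 0.15. EXPA1, an expansin of enlarging cells, had 146.2 RPKM in MOMT4 and 147.8 RPKM in WT. CDC2, a kinase of dividing cells, had 14.4 RPKM in MOMT4 and 13.6 RPKM in WT. Of the genes of the cambium, the layer of dividing cells that makes wood, the receptor kinase PXY had a log2 ratio of -0.11. The copies of WOX4, a homeobox factor that keeps the cambium dividing, had log2 ratios of -0.29 on chromosome 14 and -0.04 on chromosome 2. The WOX4 copy on chromosome 14 had 71.2 RPKM in MOMT4 and 87.1 RPKM in WT and so differed about as much as BFN1. Its ratio of 0.82 had a counting interval of 0.74 to 0.90. That interval rests on 791 reads in MOMT4 and 895 in WT, the 1 pair of whole numbers that matched. Up to that pair 1.61 matches were foreseen by chance, against 0.052 for BFN1 up to its fewest reads. The reads of this WOX4 copy are therefore not settled, and the interval holds only if reads were counted whole. Of the 1000 genes of like level, 6.4% had a ratio as low or lower, against 11.4% for BFN1. SUS6, a sucrose synthase used as a phloem marker, was listed at 24.5 RPKM in MOMT4 and 21.9 RPKM in WT although the bark had been removed. Its row shares its position with another row. Whether the mix of cells in each pool had a part in the levels of the XCP genes and BFN1 was not tested.

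**Figure D5:**
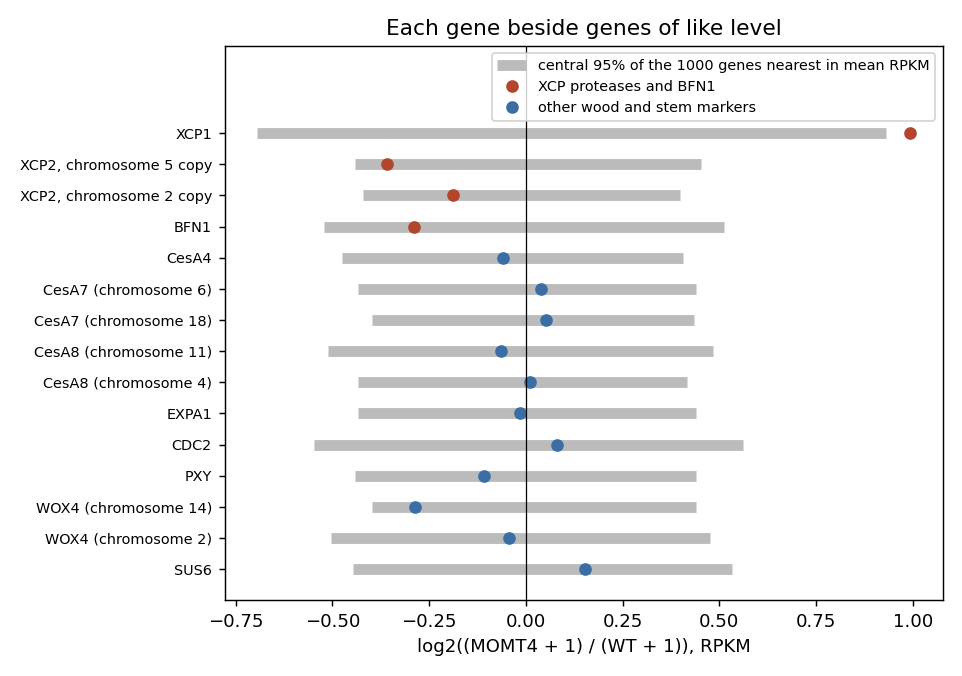
Log2 ratio of MOMT4 over WT with a pseudocount of 1 RPKM (horizontal axis) for the 4 xylem cell death genes (red) and the other wood and stem markers (blue), each on the central 95% of the ratios of the 1000 genes nearest in mean RPKM (grey bars). XCP1 is the 1 point to the right of its bar, and the chromosome 5 copy of XCP2, at -0.36, lies close to the left end of its bar at -0.44.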

How the data were processed

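Per the methods, TopHat was run by the authors on single-end reads with 1 mismatch allowed, against the PlantGDB copy of the P. trichocarpa genome. The authors deposited 1 RPKM value per gene and library from Cuffdiff. The submitters' processing notes also name Bowtie. Versions, the genome build and the use of strand in counting are not given in the sources used here. The read length is 100 bp in the methods and 50 bp in the series' text. Columns with the authors' fold changes, p values and q values were not used.

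Each library's RPKM was taken as deposited. Ratios, MOMT4 over WT, were computed as log2 after adding 1 RPKM, for poplar genes averaging at least 1 RPKM, without the 2 rows that Cuffdiff marked as failed. The table's starts were raised by 1. Each gene was placed among the 1000 genes nearest in log2 mean RPKM. The worth of 1 read in WT over MOMT4 was the most frequent ratio other than 1 (986 rows), and the totals came from genes whose values fit a single exon, with 215 bases taken off their span. Steps were tested on simulated data. Alternatives were pseudocounts of 0.1 and 5 RPKM, centring, rescaling to equal sums, 200 or 3000 nearest genes, nearness in WT alone, other filters and a limit of 1.5-fold. The genes named are the 4 chosen ones and the marker lists. With 2 libraries, no likeness of pattern to other genes can be measured. Members and lists were chosen with earlier results of these data known. Lists that need gene descriptions (other proteases, nucleases, inhibitors and regulators), the closest relatives by protein identity and the promoter motifs were not analysed here. The scripts ran in Python 3.11.15 with SciPy 1.17.1, NumPy 2.4.6 and pandas 2.3.3, and figures were drawn with matplotlib 3.10.9.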

Additional observations from a re-analysis of the deposited data

How the results depend on the processing

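Adding the same pseudocount to both values cannot change the sign of a ratio. Centring on the median of all genes, -0.01, and rescaling to equal sums shifted the ratios little beside their size. Kept signs are therefore no test of the differences. The log2 ratios of the 4 genes kept their signs under each pseudocount and scaling tried. They ranged from 0.53 (pseudocount of 5 RPKM) to 1.24 (pseudocount of 0.1 RPKM) for XCP1, from -0.36 to -0.34 for the chromosome 5 copy of XCP2, from -0.19 to -0.17 for the chromosome 2 copy and from -0.31 to -0.23 for BFN1. Summing XCP1 with the row at its position, an alternative chosen after seeing the data, gave 0.22, though the other row made up most of that sum. None of the 4 genes was 2-fold apart, but 1, XCP1, was at a limit of 1.5-fold or with a pseudocount of 0.1 RPKM. Over all poplar genes the count was 405 (61.2% of them higher in MOMT4), 563 with no expression filter, 142 with a mean of at least 5 RPKM, 1621 at 1.5-fold and 861 with a pseudocount of 0.1 RPKM, and the share higher lay between 57.4% and 64.1%. The search for closest relatives by protein identity was not run, since no protein sequences were used. No paired analysis was possible because each line has 1 library.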

Other observations

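The genes beside the 4 on their chromosomes were read for context, 3 rows to each side. The chromosome 5 copy of XCP2 stood among nearly silent genes: 1 of its 6 neighbours passed the expression filter, Potri.005G256300, with 3.60 RPKM in MOMT4 and 0.60 RPKM in WT, a log2 ratio of 1.53. The chromosome 2 copy had 3 neighbours past the filter, and the nearest, Potri.002G005600, 610 bases away, had 18.3 RPKM in MOMT4 and 21.1 RPKM in WT, a log2 ratio of -0.19. The other 2 were at 0.03 and 0.47, so that 1 of the 3 was lower in MOMT4. Beside BFN1, Potri.011G044400 ends 87 bases away and had 18.8 RPKM in MOMT4 and 17.0 RPKM in WT, a log2 ratio of 0.13. The other 3 of the 4 neighbours of BFN1 past the filter were lower in MOMT4, at -0.34, -0.23 and -0.09. The 4 neighbours of XCP1 past the filter lay between -0.05 and 0.15 on the log2 scale. These genes were chosen by position after the data were seen, and the table names none of them.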
